A study of Mus musculus with 4 samples.

Results

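The secreted Wnt ligands, their receptors and the secreted proteins that modulate them were followed across the cell classes of the mouse ventricle. The genes were chosen by symbol alone: every Wnt, Frizzled (Fzd), Sfrp1 to Sfrp5 (with Sfrp3 listed as Frzb), Wif1, Dkk1 to Dkk4, Rspo1 to Rspo4, Lgr4 to Lgr6, and Lrp5 and Lrp6. This gave 48 of the 25906 genes measured, and the 40 with at least 20 UMIs (unique molecular identifiers, each counting 1 captured transcript) over the kept nuclei of all 4 libraries are reported. They comprised 15 of 19 Wnt ligands, 8 of 10 Frizzleds, both Lrp co-receptors, all 3 Lgr receptors, 3 of 4 R-spondins, all 5 Sfrp genes and 4 of the 5 Dkk and Wif1 genes. Sfrp5, with 22 UMIs, lay just inside the minimum and Fzd10, with 19, just outside it. The other genes not reported were Wnt1 with 15 UMIs, Dkk1 with 14, Fzd9 with 8, Wnt3 with 5, Wnt10a with 4, Rspo4 with 3 and Wnt8a with 2.

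The study asked how voluntary wheel running changes the cells of the heart before and after myocardial infarction. All mice were wild type on the C57BL/6J background, of both sexes and 8 weeks old at the start. There were 4 groups: sedentary, running (16 weeks with a wheel), sedentary with infarct, and running with infarct (the same 16 weeks, then surgery). In both infarct groups hearts were taken 2 weeks after the infarct. Each non-infarct library pooled the frozen ventricles of 2 hearts and each infarct library those of 4, and nuclei sorted on the DNA dye Hoechst were loaded into 1 droplet well per group. With 1 library per group there is no test of any group difference: intervals below are exact 95% counting intervals, they do not cover the spread between animals, and a gene is called higher or lower where its fold is at least 1.5. Levels are UMIs of a gene per 1000000 non-mitochondrial UMIs (CPM), summed over the nuclei of a class. Values are given in the order sedentary, running, sedentary infarct, running infarct.

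Wnt proteins are lipid-modified ligands that bind a Frizzled receptor, either with the co-receptor Lrp5 or Lrp6, which stabilises beta-catenin and lets it act with TCF/LEF factors in the nucleus, or without it in beta-catenin-independent signalling. R-spondins bind Lgr4, Lgr5 or Lgr6 and keep Frizzleds on the cell surface, while Sfrp proteins and Wif1 bind Wnts outside the cell and Dkk1, Dkk2 and Dkk4 bind the Lrp co-receptors. In the heart the pathway is known from valve, epicardial and coronary development and from the scar that forms after infarction.

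RefSeq promoter windows (GRCm38.p6, 250 bases before to 50 after a transcription start) matched 25 of the 40 reported genes. Those of Sfrp2 and Frzb are shown because both genes were higher in fibroblast-like nuclei of both infarct libraries, that of Wnt11 because it was lower there, and those of Dkk2 and Wnt9b because both peaked in the same small endothelial cluster. Capitals mark motif matches, and all are written 5′ to 3′ on the gene's strand.

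Sfrp2, chr3:83766071-83766370, plus strand: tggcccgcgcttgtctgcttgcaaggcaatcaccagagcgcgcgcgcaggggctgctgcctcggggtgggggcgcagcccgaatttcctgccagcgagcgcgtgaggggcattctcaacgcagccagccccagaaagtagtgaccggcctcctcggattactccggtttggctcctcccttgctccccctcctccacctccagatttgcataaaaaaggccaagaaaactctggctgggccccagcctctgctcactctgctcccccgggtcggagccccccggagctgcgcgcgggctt

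Frzb, chr2:80447347-80447646, minus strand: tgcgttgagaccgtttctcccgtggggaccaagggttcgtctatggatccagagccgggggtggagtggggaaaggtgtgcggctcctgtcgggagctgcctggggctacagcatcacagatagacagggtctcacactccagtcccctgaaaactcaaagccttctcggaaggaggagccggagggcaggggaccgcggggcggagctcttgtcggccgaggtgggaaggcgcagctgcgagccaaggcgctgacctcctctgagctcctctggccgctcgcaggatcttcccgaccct

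Wnt11, chr7:98834862-98835161, plus strand: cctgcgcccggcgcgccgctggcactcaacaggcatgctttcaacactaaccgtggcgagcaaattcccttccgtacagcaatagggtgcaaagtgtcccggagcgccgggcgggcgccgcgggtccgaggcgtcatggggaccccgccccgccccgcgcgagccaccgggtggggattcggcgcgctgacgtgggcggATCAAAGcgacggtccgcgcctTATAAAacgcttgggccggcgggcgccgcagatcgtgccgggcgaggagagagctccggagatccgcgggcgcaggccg

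Dkk2, chr3:132085042-132085341, plus strand: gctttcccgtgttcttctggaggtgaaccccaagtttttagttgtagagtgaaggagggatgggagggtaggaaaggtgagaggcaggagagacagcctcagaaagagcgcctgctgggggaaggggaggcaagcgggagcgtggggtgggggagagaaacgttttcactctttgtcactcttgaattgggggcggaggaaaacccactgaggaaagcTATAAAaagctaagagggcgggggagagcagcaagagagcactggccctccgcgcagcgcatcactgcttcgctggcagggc

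Wnt9b, chr11:103749772-103750071, minus strand: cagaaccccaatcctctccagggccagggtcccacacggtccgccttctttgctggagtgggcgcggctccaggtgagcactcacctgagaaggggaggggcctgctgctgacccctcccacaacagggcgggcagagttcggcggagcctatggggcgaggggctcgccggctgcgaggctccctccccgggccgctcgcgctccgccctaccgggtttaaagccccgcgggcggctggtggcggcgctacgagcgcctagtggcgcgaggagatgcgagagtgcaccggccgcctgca

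On both strands of these windows, 5 motifs were searched: TCF/LEF as CTTTGAT or CTTTGAA, AP-1 as TGANTCA, TEAD as GGAATG, RUNX as TGTGGT and the TATA box as TATAAA. The Wnt11 window shown held 1 TCF/LEF match and 1 TATA box, while the window of its other listed start, chr7:98838595-98838894, held none of the 5, and the Dkk2 window 1 TATA box. The Sfrp2, Frzb and Wnt9b windows held none of the 5. Of 32817 distinct mouse promoter windows of this length, 8.65% held the TCF/LEF letters, 7.81% AP-1, 14.7% TEAD, 16.8% RUNX and 13.6% the TATA box. A match describes the letters of a window and does not show that a factor binds there.

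The 4 libraries held 3243 to 6253 barcodes and 26170995 to 37533722 UMIs, and 18761 nuclei were kept. The median UMI count per barcode was 3596.5, 3811, 4214 and 2910.5. The median mitochondrial share was 6.26%, 10.2%, 4.67% and 4.68%, so the running library stood above the others. In all, 46 barcodes occurred in more than 1 library. Clustering without the Wnt genes or the related pathway genes gave 25 clusters, and 14638 nuclei (78.0%) fell into 14 classes. These were named by their markers except 1 small endothelial cluster described by its leading gene, Calcr. The 14 classes held 48.2% of kept Frzb UMIs, 51.4% of Sfrp1, 54.9% of Sfrp2, 58.3% of Dkk3 and 81.9% of Wnt9b. The rest lay in unnamed clusters, some of low depth and some with high doublet scores, and enters no class level below. Of the marker lists, all 11 mesothelial and all 12 cardiomyocyte genes and 11 of 12 fibroblast genes were highest in their own class, and all 8 smooth muscle genes were as well. The vascular endothelial list did so for only 7 of 12. Classes hold 102 to 4998 nuclei where at least 100 were present, which was the case for 12 of them.

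The reported genes differed in how narrowly they were spread over these 12 classes. Of the 40, 33 had at least 20 UMIs in some class. The class of highest mean level was fibroblast-like for 9, mesothelial-like for 9, the Calcr-led endothelial cluster for 5, cardiomyocyte-like for 4, lymphatic endothelial-like for 2, and macrophage-like, pericyte-like, smooth muscle-like and vascular endothelial-like for 1 each. The other 7 reached 20 UMIs in no class: Wnt16 had 14, 32, 11 and 13 UMIs over all kept nuclei, Wnt6 17, 26, 9 and 9, Wnt7a 18, 15, 9 and 8, Wnt7b 7, 8, 12 and 8, Wnt3a 5, 12, 9 and 6, Dkk4 9, 5, 6 and 4, and Sfrp5 8, 5, 1 and 8.

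**Figure D1:**
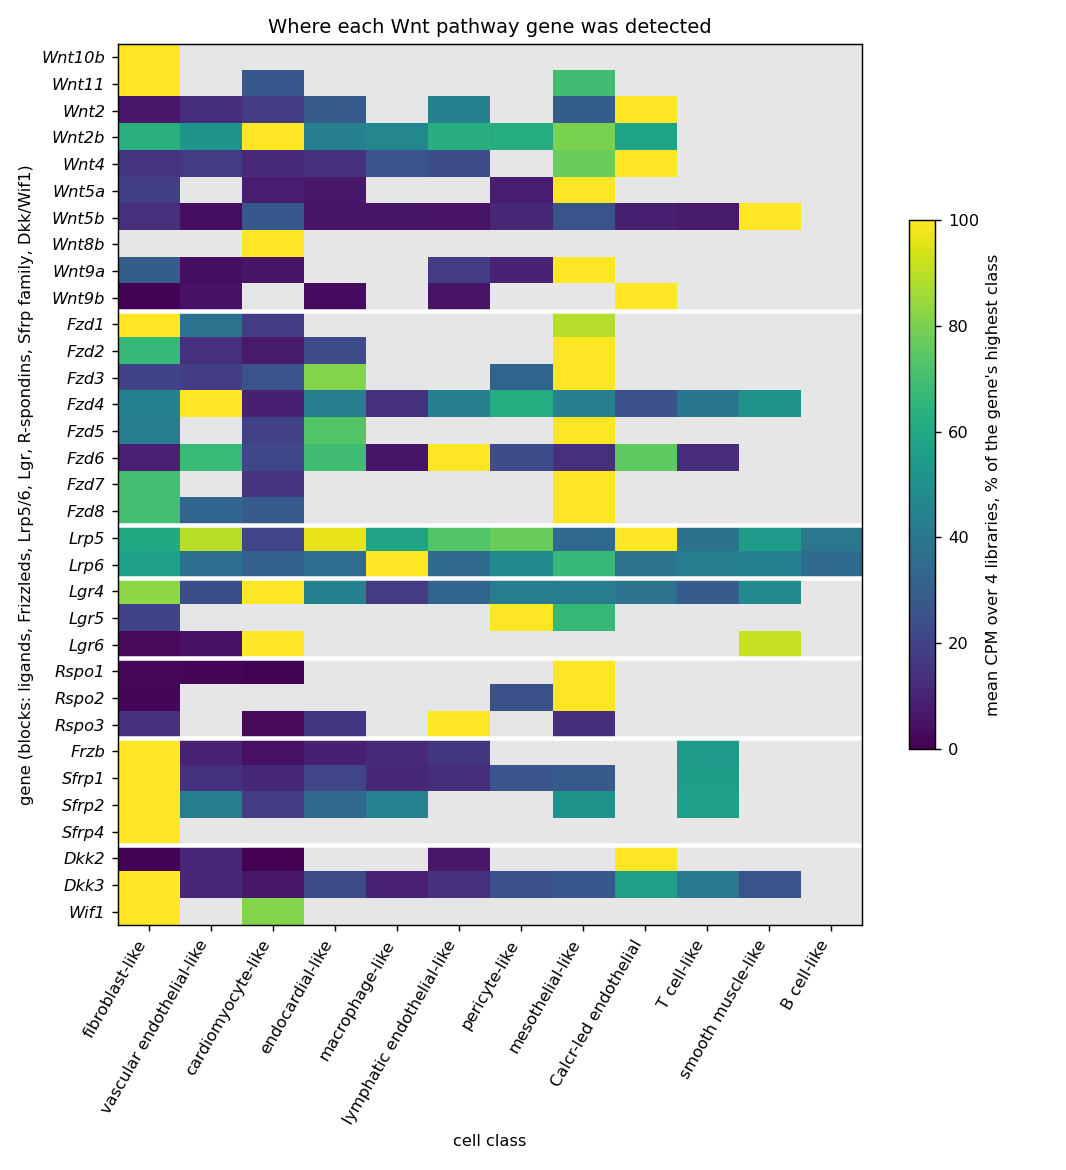
Mean CPM over the 4 libraries of each Wnt pathway gene (rows) in each cell class of at least 100 nuclei (columns), coloured as a percentage of the gene's own highest class, with grey where the class held under 20 UMIs of the gene. Rspo1, Wnt9b and Dkk2 are each bright in a single column, while Lrp6 and Lgr4 are spread over many.

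The mesothelial-like class (549 nuclei: 104, 109, 129 and 207), led by Muc16 and Upk1b and taken for the cell layer that covers the heart, held the clearest ligand source. Rspo1 (ENSMUSG00000028871), an R-spondin, measured 391 (337 to 451), 340 (294 to 392), 389 (343 to 440) and 357 (320 to 397) CPM. The 4 intervals overlap, so no library stood apart. The class made up 2.93% of kept nuclei and held 51.9% of their Rspo1 UMIs, at a mean level 43.7 times that of fibroblast-like nuclei, the next class. Rspo1 was seen in 75.0%, 66.1%, 77.5% and 68.1% of mesothelial-like nuclei against 0.900%, 0.462%, 0.806% and 1.67% of cardiomyocyte-like nuclei, which should lack it. The median depth of those cardiomyocyte-like nuclei was 8421.5, 8495, 9517.5 and 3042 UMIs. Thinning to 1000 UMIs, here and below, took only nuclei with at least 1000 UMIs and left shallower ones out of the share. Thinned and unthinned shares therefore do not cover the same nuclei. After thinning the mesothelial-like shares were 33.3%, 22.9%, 30.5% and 28.0%, and the cardiomyocyte-like shares 0%, 0%, 0.287% and 0%.

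Among the ligands, Wnt9a measured 110, 95.2, 106 and 118 CPM in mesothelial-like nuclei, 3.38 times its next class, with overlapping intervals in all libraries. Wnt5a, the best known ligand of beta-catenin-independent signalling, measured 70.7 (49.0 to 98.8), 111 (85.3 to 142), 109 (85.3 to 137) and 90.5 (72.3 to 112) CPM there. It was lowest in the sedentary library, with a ratio of 1.57 (1.02 to 2.46) for running and 1.54 (1.01 to 2.39) for sedentary infarct, both over sedentary, and its intervals overlapped. Here and below, nuclei with Y-linked transcripts are those with at least 2 UMIs over 4 Y-linked genes. In these nuclei alone, the running over sedentary difference in Wnt5a was -0.052 in place of 0.65 on the log2 scale.

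Rspo2, a second R-spondin, measured 81.1 (57.7 to 111), 17.6 (8.45 to 32.4), 167 (137 to 201) and 98.9 (79.9 to 121) CPM in the mesothelial-like class. The running library was lowest and the sedentary infarct library highest. These values rest on 2, 3, 8 and 19 nuclei with a Rspo2 UMI, and single nuclei held 23 of 39, 5 of 10, 74 of 110 and 20 of 94 UMIs. By counts alone Rspo2 was 4.60-fold lower in running than sedentary and 5.61-fold higher in running infarct than running. The sedentary infarct over sedentary ratio was 2.05 (1.41 to 3.04), a log2 difference of 1.04 that was -0.15 in nuclei with Y-linked transcripts. Weighing every nucleus alike brought the running over sedentary log2 difference from -2.20 to -0.47. Rspo2 in pericyte-like nuclei had the same trait: of 34 UMIs in the running infarct library, 33 came from 1 nucleus, and the other libraries held 5, 0 and 1. Its levels there were 6.71, 0, 2.23 and 81.3 CPM, at least 23.7-fold higher in running infarct than running against a floor of 3 counts per library, with a ratio of 36.4 (6.11 to 1480) over sedentary infarct.

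Several Frizzled receptors were also highest in mesothelial-like nuclei by mean level over the 4 libraries, at low counts and by small margins. The ratio to the next class was 1.49 for Fzd2, 1.23 for Fzd3, 1.37 for Fzd5, 1.43 for Fzd7 and 1.42 for Fzd8. For Fzd3 and Fzd5 the class was highest in only 2 of the 4 libraries. Fzd2 measured 25.0, 38.8, 34.8 and 9.47 CPM from 12, 22, 23 and 9 UMIs. The running infarct library was lowest, 4.10-fold below running and 3.68-fold below sedentary infarct. Fzd3 measured 39.5 (23.8 to 61.7), 44.1 (28.5 to 65.1), 10.6 (4.26 to 21.8) and 18.9 (11.2 to 29.9) CPM, and the sedentary infarct library was 3.73-fold lower than sedentary (1.5 to 10.5). Fzd5 measured 10.4, 14.1, 3.03 and 5.26 CPM, Fzd7 18.7, 12.3, 3.03 and 6.31, and Fzd8 14.6, 10.6, 4.54 and 8.41, all 3 with overlapping intervals. In this class 12.8% of all measured genes were at least 1.5-fold lower in sedentary infarct over sedentary, 13.9% in running infarct over running and 12.2% in running over sedentary. The share of mesothelial-like nuclei with Y-linked transcripts was 55.8%, 33.0%, 13.2% and 22.2%. It was lower in both infarct libraries but also differed between the non-infarct ones. This share does not measure the mix of animals in a pool, and its part in these differences was not tested.

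The Calcr-led endothelial cluster (328 nuclei: 124, 120, 38 and 46), named for the calcitonin receptor gene at its head, carried a different set. It expressed the pan-endothelial gene Pecam1 at 1525 CPM over all libraries. Of the endocardial markers, only Nfatc1 (268 CPM against 104 in endocardial-like nuclei) and Cytl1 (96.3 against 87.9) were higher in it. All the others were lower, among them Npr3 (227 against 1720), Smoc1 (38.2 against 885), Vwf (212 against 993) and Hmcn1 (1686 against 5481). The lymphatic gene Prox1 was at 308 against 1065 CPM in lymphatic endothelial-like nuclei. The marker rule would have named it endocardial-like from 7 detected markers. None of these was among its 10 leading genes, but the same held for the fibroblast-like clusters and their markers, and those kept their name. It was set apart after the clusters were seen and is called here by its leading gene.

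Wnt9b (ENSMUSG00000018486), a Wnt ligand known from kidney tubule development, measured 282 (239 to 330), 226 (187 to 270), 77.5 (41.3 to 133) and 160 (107 to 229) CPM in this cluster. Both infarct libraries lay below both non-infarct ones, though the running and running infarct intervals overlap; the sedentary infarct library was 3.63-fold lower than sedentary (2.06 to 6.98). Of all genes measured in the cluster, 19.7% were at least 1.5-fold lower in that comparison. The cluster was 1.75% of kept nuclei and held 51.8% of their Wnt9b UMIs, at 18.7 times the mean level of the next class. Within the endothelial-like clusters together its pooled level was 27.4-fold that of the rest (22.0 to 34.3). Wnt9b was seen in 33.9%, 35.8%, 18.4% and 28.3% of the nuclei, or 16.1%, 13.3%, 2.63% and 13% after thinning.

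Dkk2 (ENSMUSG00000028031), which binds Lrp5 and Lrp6, measured 552 (491 to 618), 606 (541 to 677), 399 (310 to 507) and 352 (271 to 450) CPM in the same cluster. The 2 infarct libraries were lower, although the sedentary and sedentary infarct intervals overlap. The cluster held 39.6% of kept Dkk2 UMIs, and its mean level was 8.71 times that of vascular endothelial-like nuclei. Dkk2 was seen in 42, 50, 8 and 10 nuclei (33.9%, 41.7%, 21.1% and 21.7%), so the infarct levels rest on few nuclei, and 1 nucleus held as many as 62 UMIs. In nuclei with Y-linked transcripts, the running infarct over running log2 difference was 0.13 in place of -0.78. Of the 328 nuclei, 110 had a Dkk2 UMI, 105 a Wnt9b UMI, 48 both and 161 neither. Dkk2 also appeared in a vascular endothelial-like cluster of 499 nuclei led by Gja5, an arterial gap junction gene, where the level was 212, 178, 0 and 367 CPM and 86 nuclei held 298 UMIs. In lymphatic endothelial-like nuclei Dkk2 measured 31.8, 3.08, 46.9 and 43.2 CPM from only 8, 4, 2 and 3 nuclei.

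Wnt2, another ligand, measured 79.7 (57.7 to 107), 21.0 (10.5 to 37.6), 0 (0 to 22.0) and 44.0 (19.0 to 86.7) CPM in the Calcr-led cluster, from 43, 11, 0 and 8 UMIs. The running library was 3.79-fold lower than sedentary (1.92 to 8.14), where 10.9% of all genes of the cluster were at least 1.5-fold lower. Sedentary infarct was at least 4.45-fold lower than sedentary, from a floor of 3 counts in its 38 nuclei. Wnt4 measured 66.7, 53.5, 53.6 and 60.5 CPM and the co-receptor Lrp5 156, 126, 137 and 171 CPM, both with overlapping intervals. For Lrp5 the cluster was only 1.03 times the endocardial-like class, so its place at the top does not set it apart.

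**Figure D2:**
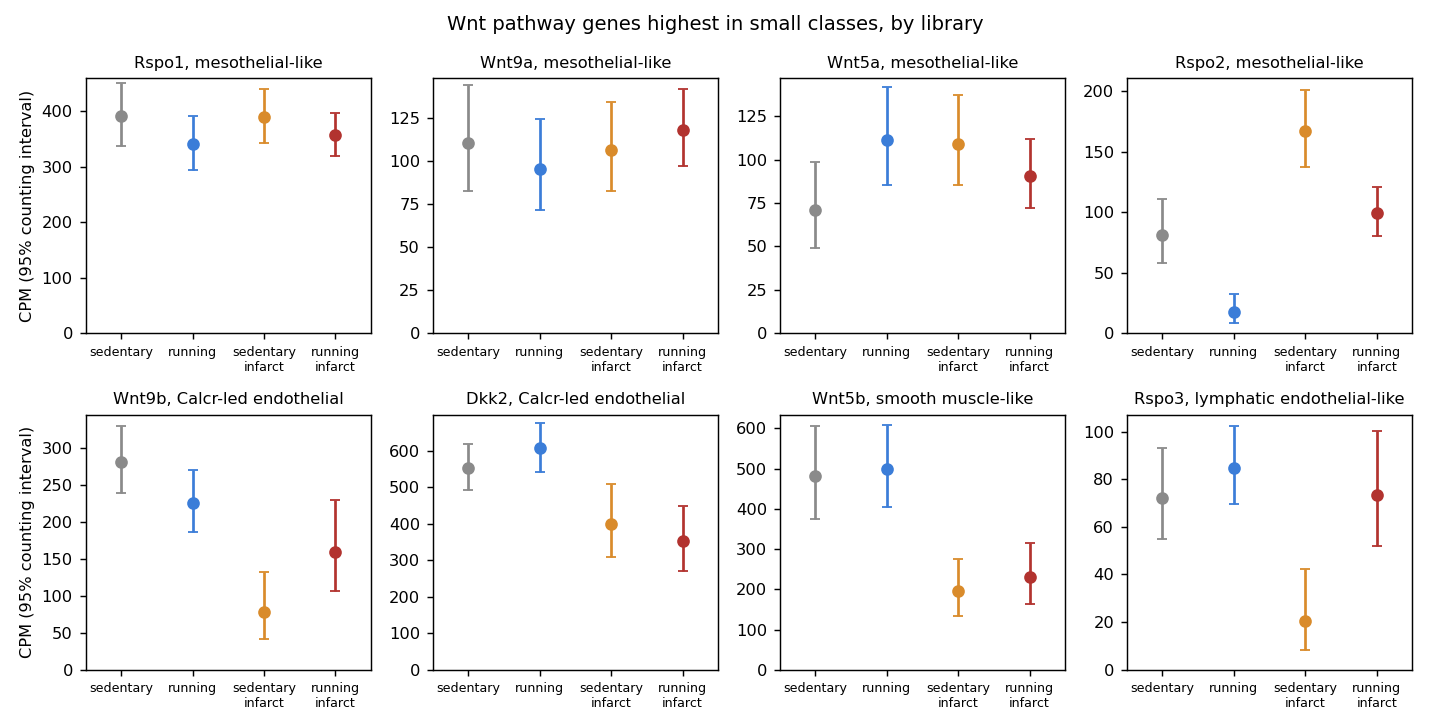
CPM of Wnt pathway genes highest in small cell classes, 1 panel per gene and class, with 1 point per library (sedentary, running, sedentary infarct, running infarct) and bars for the 95% counting interval. Rspo1 is level across the 4 libraries, whereas Wnt9b and smooth muscle Wnt5b sit lower in both infarct libraries.

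In smooth muscle-like nuclei (160 nuclei: 40, 47, 27 and 46) the leading ligand was Wnt5b, a close relative of Wnt5a. It measured 481 (376 to 607), 499 (405 to 609), 195 (133 to 275) and 230 (164 to 314) CPM, 3.65 times its next class. Both infarct libraries lay below both non-infarct libraries with no overlap of intervals, and sedentary infarct was 2.47-fold lower than sedentary (1.61 to 3.88). In this small class 16.8% of all measured genes were at least 1.5-fold lower in that comparison and 19.6% in running infarct over running. Wnt5b was seen in 57.5%, 63.8%, 44.4% and 30.4% of nuclei, or 35.0%, 25.5%, 23.1% and 11.9% after thinning. Nuclei with Y-linked transcripts made up 45.0%, 34.0%, 7.41% and 8.70% of the class. In those nuclei alone the Wnt5b log2 differences turned, to 0.70 for sedentary infarct over sedentary (-1.31 in all nuclei) and 0.65 for running infarct over running (-1.12), but they numbered only 18, 16, 2 and 4.

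In lymphatic endothelial-like nuclei Rspo3, an R-spondin, measured 72.3 (55.0 to 93.2), 84.8 (69.7 to 102), 20.5 (8.24 to 42.2) and 73.2 (52.1 to 100) CPM, 6.29 times its next class. The sedentary infarct library alone was low, at 7 UMIs in 76 nuclei, 3.52-fold below sedentary (1.61 to 9.15; 14.9% of all genes of the class were at least 1.5-fold lower), and running infarct was 3.57-fold above it (1.58 to 9.46). In endocardial-like nuclei the order was different: 4.48, 8.07, 24.6 and 2.68 CPM, with sedentary infarct 5.50-fold above sedentary and running infarct 9.19-fold below sedentary infarct. Fzd6, a Frizzled known from planar cell polarity, measured 186 (158 to 218), 145 (125 to 167), 246 (196 to 305) and 231 (192 to 275) CPM in lymphatic endothelial-like nuclei. It was lowest in the running library.

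Fzd4, the Frizzled through which norrin acts on retinal vessels, was highest in vascular endothelial-like nuclei at 132 (116 to 149), 125 (110 to 140), 116 (94.6 to 140) and 82.3 (68.0 to 98.7) CPM. The running infarct library was the low one, 1.51-fold below running (1.21 to 1.90). The Gja5-led cluster held 199 of 696, 218 of 742, 34 of 290 and 48 of 546 nuclei of the class. Fzd4 measured 126, 102, 156 and 31.9 CPM in it, from 75, 72, 14 and 4 UMIs. Its larger cluster, 1775 nuclei led by Atp8b5, held 118 CPM over all libraries, 2.16-fold over the other endothelial-like clusters, and 135, 136, 111 and 87.3 CPM by library.

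Cardiomyocyte-like nuclei were the top class of 2 Lgr receptors. Lgr6 measured 116 (108 to 124), 92.1 (84.1 to 101), 104 (93.1 to 115) and 115 (100 to 130) CPM and the class held 63.4% of its kept UMIs, although smooth muscle-like nuclei were close (1.09 times lower) at 108, 113, 79.1 and 88.5 CPM. Lgr6 was seen in 50.3%, 43.8%, 47.0% and 29.2% of cardiomyocyte-like nuclei, and in 9.79%, 7.29%, 9.48% and 7.59% after thinning against 0.210%, 0.327%, 0.420% and 0% of fibroblast-like nuclei. Lgr4 measured 111, 97.5, 110 and 129 CPM, lowest in the running library. The ligand Wnt2b measured 37.6, 29.2, 29.2 and 23.7 CPM in the class, and 23.5, 5.87, 13.5 and 9.38 CPM in endocardial-like nuclei, where running was 4.01-fold below sedentary. Wnt8b measured 1.24, 1.88, 0.578 and 0.483 CPM in cardiomyocyte-like nuclei from 21 UMIs in all.

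The co-receptor Lrp6 was spread over many classes and was highest in macrophage-like nuclei, at 444 (384 to 511), 448 (396 to 506), 428 (384 to 475) and 352 (324 to 382) CPM, 1.5 times its next class. The running infarct library was lowest. Lgr5, well known as a marker of intestinal stem cells, was highest in pericyte-like nuclei at 32.2 (20.6 to 47.9), 12.6 (6.28 to 22.5), 26.8 (13.8 to 46.8) and 2.39 (0.0605 to 13.3) CPM. These come from 24, 11, 12 and 1 UMIs, and running was 2.56-fold below sedentary (1.21 to 5.79).

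Fibroblast-like nuclei (4998: 1446, 1554, 992 and 1006) were, by mean level, the highest class of most secreted Wnt-binding proteins: Sfrp1, Sfrp2, Sfrp4, Frzb and Wif1, and of Dkk3. For Wif1 the mean was only 1.23 times that of cardiomyocyte-like nuclei, and the class was highest in 2 of 4 libraries. Sfrp2 was 1.78 times its next class, T cell-like nuclei, and its interval overlapped that of another class in every library. Of 48 genes, 30 had at least 20 UMIs in the 2 libraries compared. In sedentary infarct over sedentary, 11 of these were higher, against 9.96% of all 13801 genes measured this way, and 3 were lower, against 11.0%. Their median log2 difference was 0.24, where that of all genes was -0.03. In running infarct over running, 10 of 30 were higher (10.7% of all genes) and 4 lower (12.3%), with medians of 0.12 and -0.06. These comparisons share no library. At 100 UMIs or more, 6 of 15 genes were higher in sedentary infarct over sedentary (6.41% of all genes) and 6 of 15 in running infarct over running (7.25%), with 1 lower in each (7.64% and 8.63%). Fibroblast-like nuclei with Y-linked transcripts, as defined above, numbered 445, 553, 174 and 192 (30.8%, 35.6%, 17.5% and 19.1%). Those counted as without them numbered 740, 729, 730 and 691, and the remaining nuclei entered neither group.

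Sfrp2 (ENSMUSG00000027996), a secreted Frizzled-related protein, showed the largest infarct ratios of the group. It measured 2.35 (1.21 to 4.10), 6.39 (4.52 to 8.78), 39.8 (34.2 to 46.0) and 61.3 (53.7 to 69.6) CPM, from 12, 38, 180 and 238 UMIs. No 2 of these intervals overlap. Sfrp2 was 16.9-fold higher in sedentary infarct than sedentary (9.46 to 33.4) and 9.58-fold higher in running infarct than running (6.78 to 13.9). In nuclei with Y-linked transcripts these ratios were 3.54 and 3.34 on the log2 scale, and 4.10 and 3.22 in nuclei without them, against 4.08 and 3.26 in all. The share of nuclei with a Sfrp2 UMI was 0.830%, 1.61%, 10.6% and 14.7%, or 0.350%, 0.589%, 3.57% and 5.32% after thinning, at median depths of 3464.5, 4012, 4268 and 3524 UMIs.

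Frzb (Sfrp3, ENSMUSG00000027004) measured 23.1 (19.1 to 27.7), 37.0 (32.3 to 42.2), 76.9 (69.0 to 85.4) and 87.0 (78.0 to 96.8) CPM. Both infarct libraries lay above both others, by 3.33-fold (2.69 to 4.14) in sedentary and 2.35-fold (1.98 to 2.80) in running mice. Sfrp1 measured 46.4 (40.7 to 52.7), 50.5 (44.9 to 56.5), 61.2 (54.2 to 68.8) and 115 (104 to 126) CPM. Only its running infarct level stood clear of the rest, 2.27-fold over running (1.96 to 2.64), while sedentary infarct over sedentary was 1.32 (1.11 to 1.58). Sfrp4, a further Sfrp, measured 7.24, 11.8, 5.74 and 7.21 CPM and was 1.63-fold lower in running infarct than running (1.04 to 2.63). Whether the infarct ratios differ between sedentary and running mice cannot be tested with these libraries.

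Dkk3 (ENSMUSG00000030772), a divergent Dkk that does not bind Lrp5 or Lrp6, measured 63.2 (56.5 to 70.5), 78.4 (71.4 to 85.9), 163 (151 to 175) and 181 (168 to 195) CPM. Both infarct libraries stood clear of both others, by 2.58-fold (2.26 to 2.94) in sedentary and 2.31-fold (2.05 to 2.60) in running mice. Its share of nuclei was 10.8%, 13.1%, 29.4% and 31.4%, or 4.34%, 4.84%, 11.6% and 12.2% after thinning. With nuclei of at most 5% mitochondrial UMIs, which left 134 fibroblast-like nuclei in the running library, the running infarct over running log2 difference of Dkk3 was -0.19 in place of 1.21. Wif1, which also binds Wnts, measured 2.54 (1.35 to 4.35), 3.53 (2.19 to 5.40), 11.7 (8.77 to 15.3) and 8.24 (5.63 to 11.6) CPM. The infarct ratios were 4.60 (2.47 to 9.20) in sedentary and 2.33 (1.30 to 4.25) in running mice, and the latter, 1.22 on the log2 scale, was -0.93 at that mitochondrial limit.

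**Figure D3:**
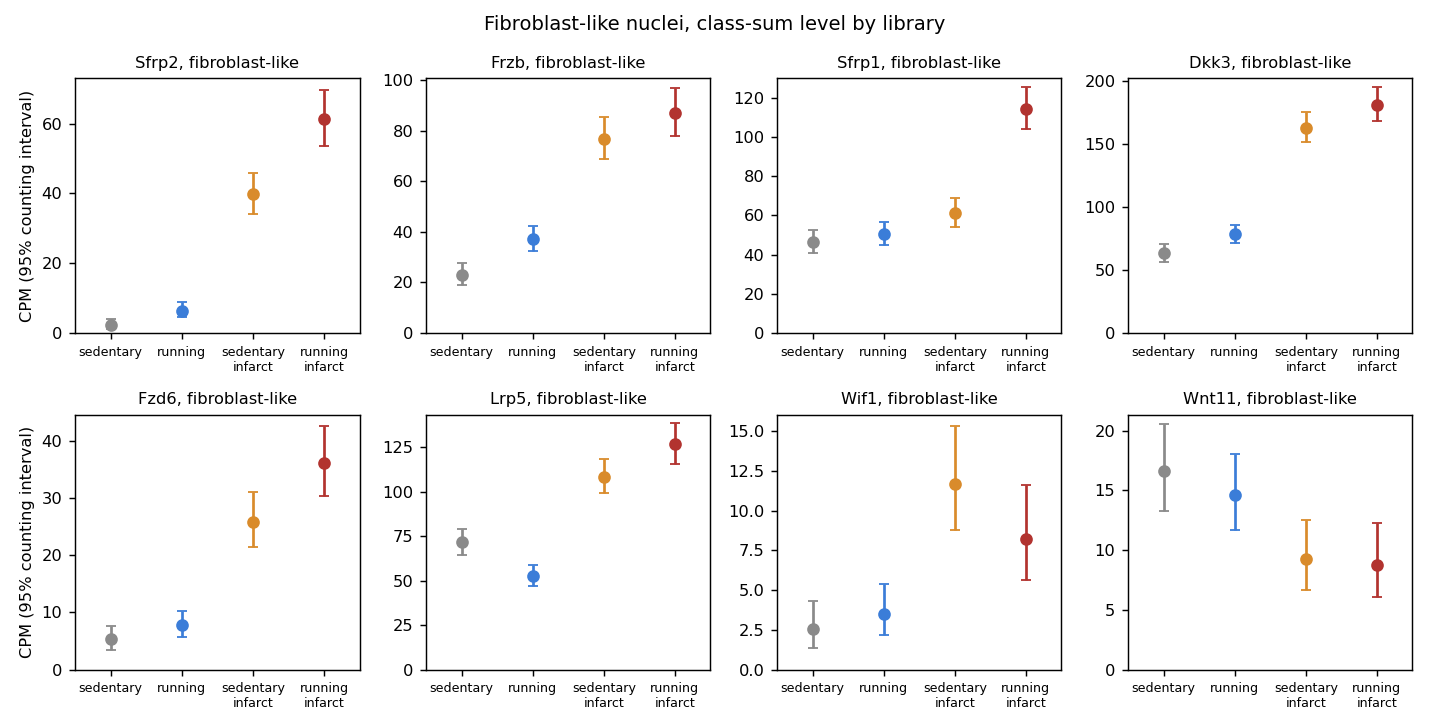
CPM of 8 Wnt pathway genes summed over fibroblast-like nuclei, with 1 point per library (sedentary, running, sedentary infarct, running infarct) and bars for the 95% counting interval. Sfrp2, Frzb, Dkk3, Fzd6 and Lrp5 are higher in both infarct libraries, Sfrp1 stands out in running infarct alone, and Wnt11 is lower after infarct.

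Of 13 receptors and co-receptors measured in the fibroblast-like class, 4 were called higher in sedentary infarct over sedentary (Fzd6, Lgr5, Lgr6 and Lrp5) and none lower. In running infarct over running 4 were called higher (Fzd6, Fzd8, Lgr5 and Lrp5) and 1 lower (Fzd7). Among all genes of the class, 9.96% were called higher and 11.0% lower in the first comparison, and 10.7% and 12.3% in the second. Fzd6 measured 5.28 (3.48 to 7.69), 7.74 (5.67 to 10.3), 25.8 (21.4 to 31.0) and 36.0 (30.3 to 42.5) CPM, so that both infarct libraries were higher, 4.89-fold (3.20 to 7.74) and 4.66-fold (3.32 to 6.65). Lrp5 measured 71.4, 52.5, 108 and 127 CPM, 1.52-fold (1.32 to 1.74) and 2.41-fold (2.09 to 2.79) higher. Lrp6 measured 238, 234, 255 and 229 CPM, with no library apart. Fzd4 measured 60.3, 58.2, 42.9 and 39.1 CPM and was lower by 1.41-fold (1.17 to 1.69) and 1.49-fold (1.23 to 1.81), short of the 1.5-fold call. Fzd1, highest in this class, measured 10.6, 10.3, 8.84 and 9.52 CPM with overlapping intervals, and Fzd2 15.3, 14.8, 20.3 and 22.1. Fzd3 measured 7.83, 4.88, 6.19 and 4.38 CPM, Fzd5 2.54, 3.53, 3.09 and 4.63, Fzd7 7.04, 8.24, 7.73 and 5.15, and Fzd8 6.85, 4.04, 8.17 and 7.72. Lgr6 was low throughout, at 1.96, 2.69, 4.42 and 2.57 CPM. Lgr4 measured 103, 92.4, 90.1 and 86.5 CPM. Lgr5, at 6, 13, 21 and 27 UMIs, measured 1.17, 2.19, 4.64 and 6.95 CPM, 3.95-fold (1.54 to 12.0) and 3.18-fold (1.58 to 6.71) higher after infarct.

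Among the ligands in fibroblast-like nuclei, Wnt11, known for beta-catenin-independent signalling in heart development, was lower in both infarct libraries. It measured 16.6, 14.6, 9.28 and 8.75 CPM, 1.79-fold (1.22 to 2.66) and 1.67-fold (1.11 to 2.56) lower. Wnt10b, a ligand of the beta-catenin branch, measured 5.09, 5.38, 2.21 and 4.89 CPM, low in the sedentary infarct library (2.30-fold below sedentary, 1.07 to 5.35). Wnt5a measured 14.3, 19.0, 21.9 and 15.2 CPM, highest in sedentary infarct. Wnt5b measured 45.8, 45.9, 43.5 and 51.5 CPM and Wnt9a 28.4, 28.3, 33.1 and 37.1, and neither reached 1.5-fold in either infarct comparison. The R-spondins Rspo1 and Rspo3 measured 7.63, 6.06, 7.51 and 12.6 CPM and 6.46, 8.41, 11.3 and 10.0 CPM. Rspo1 was called higher in running infarct over running alone (2.08, 1.33 to 3.30) and Rspo3 in sedentary infarct over sedentary alone (1.74, 1.10 to 2.79).

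**Figure D4:**
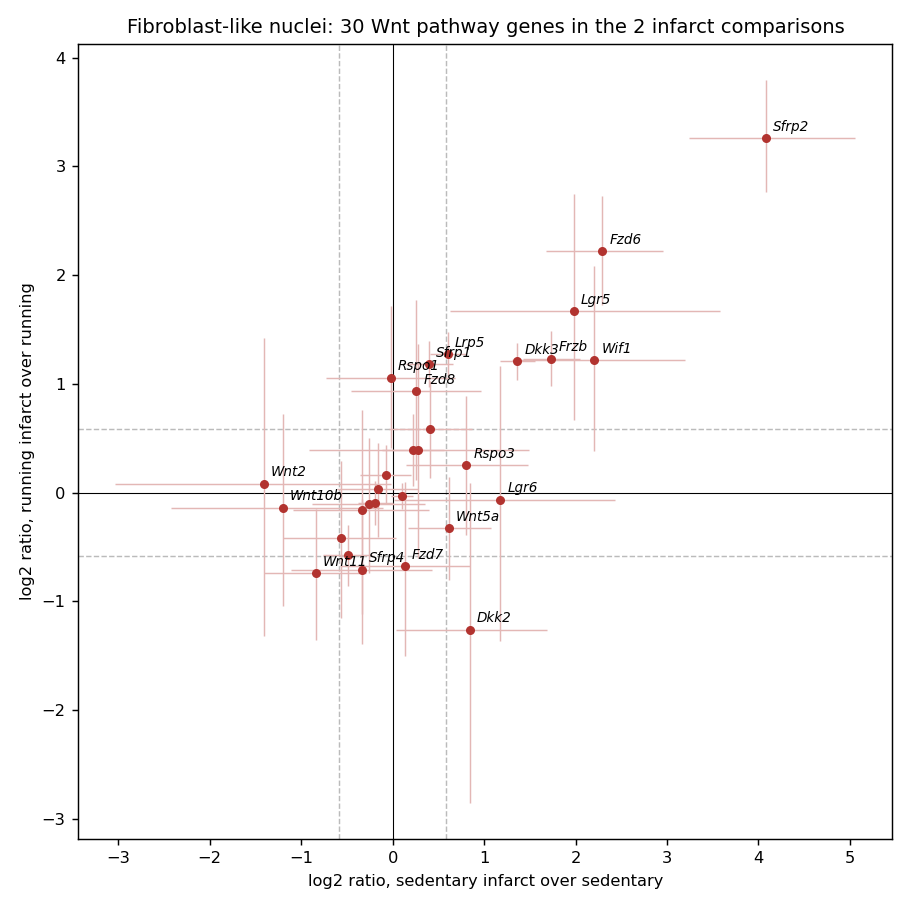
Log2 ratio of each of 30 Wnt pathway genes in fibroblast-like nuclei, sedentary infarct over sedentary on the horizontal axis and running infarct over running on the vertical axis, with pale bars for the 95% counting intervals and dashed lines at a 1.5-fold difference. Sfrp2 lies farthest out at 4.08 and 3.26, and Wnt11 lies below 0 on both axes.

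The fibroblast-like class was made of different clusters before and after infarct. A cluster led by Cemip and Col11a1 made up 1.73%, 1.74%, 34.1% and 55.6% of the class (25, 27, 338 and 559 nuclei). A cluster led by Fgf10 made up 65.8%, 60.4%, 29.8% and 14.8% of it. Over all libraries the Cemip-led cluster held 71.8% of the class's Sfrp2 UMIs, at 10.7-fold the level of the other fibroblast-like clusters (8.71 to 13.2), and 63.0% of its Fzd6 UMIs, at 7.15-fold (5.69 to 9.02). Its share was 42.6% for Frzb (3.11-fold), 35.8% for Sfrp1 (2.34-fold), 33.9% for Lrp5 (2.15-fold) and 31.6% for Dkk3 (1.94-fold).

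Within the Fgf10-led cluster Sfrp2 measured 2.18, 7.29, 10.1 and 46.0 CPM, and within the Has2-led cluster 1.67, 3.01, 12.6 and 19.2. So Sfrp2 was higher after infarct inside both, by 6.30-fold (3.47 to 11.4) and 6.39-fold (2.67 to 17.6) in running mice, while in the Cemip-led cluster the infarct libraries were alike at 86.0 and 94.7. Dkk3 measured 20.9, 29.8, 44.0 and 57.0 CPM in the Fgf10-led and 90.3, 108, 150 and 152 CPM in the Has2-led cluster. Frzb measured 20.9, 30.6, 40.6 and 29.4 CPM in the Fgf10-led cluster and 24.0, 43.5, 60.5 and 56.1 in the Has2-led one. In the Fgf10-led cluster its running infarct over running log2 difference was -0.058, where the whole class gave 1.23. Fzd6 measured 55.6 and 56.2 CPM in the Cemip-led cluster of the infarct libraries. In the Fgf10-led cluster it measured 3.74 (1.93 to 6.53), 6.71 (4.25 to 10.1), 3.38 (0.922 to 8.66) and 16.6 (7.57 to 31.4) CPM, running infarct lying above sedentary without overlap. In the Has2-led cluster it measured 5.58, 5.16, 10.6 and 10.4, and all intervals overlap. Sfrp1 in the Fgf10-led cluster measured 48.3, 52.5, 50.7 and 108 CPM, high in running infarct alone, and Sfrp4 was 2.00-fold higher in the Has2-led cluster than in the others (52.2% of its UMIs). In the Has2-led cluster 4 genes were called higher and 4 lower in each infarct comparison, of 21 measured in sedentary and 22 in running mice. The Fgf10-led cluster had 5 higher and 2 lower of 21 in sedentary and 8 and 1 of 21 in running mice. The share of all genes called inside each cluster was not counted, so no excess is read from these counts.

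The smallest fibroblast-like cluster, 89 nuclei led by Tmem132c (16, 26, 23 and 24), carried most of the Wif1. It held 98 of the 119 Wif1 UMIs of the class (82.4%), from 26 nuclei, at 202 CPM (164 to 246) against 1.11 in the other clusters, 183-fold (113 to 308). By library Wif1 measured 104, 113, 323 and 254 CPM there. Rspo3 was 20.8-fold (14.9 to 28.7) and Lgr5 11.3-fold over the other clusters, and Rspo3 measured 156, 75.0, 177 and 110 CPM by library. Dkk3 was seen in 81 of the 89 nuclei, at 916 CPM over all libraries, 9.74-fold over the others (8.76 to 10.8), and Wnt5a was 4.15-fold over them (2.81 to 5.96). The cluster was found without these genes, which were kept out of the clustering.

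**Figure D5:**
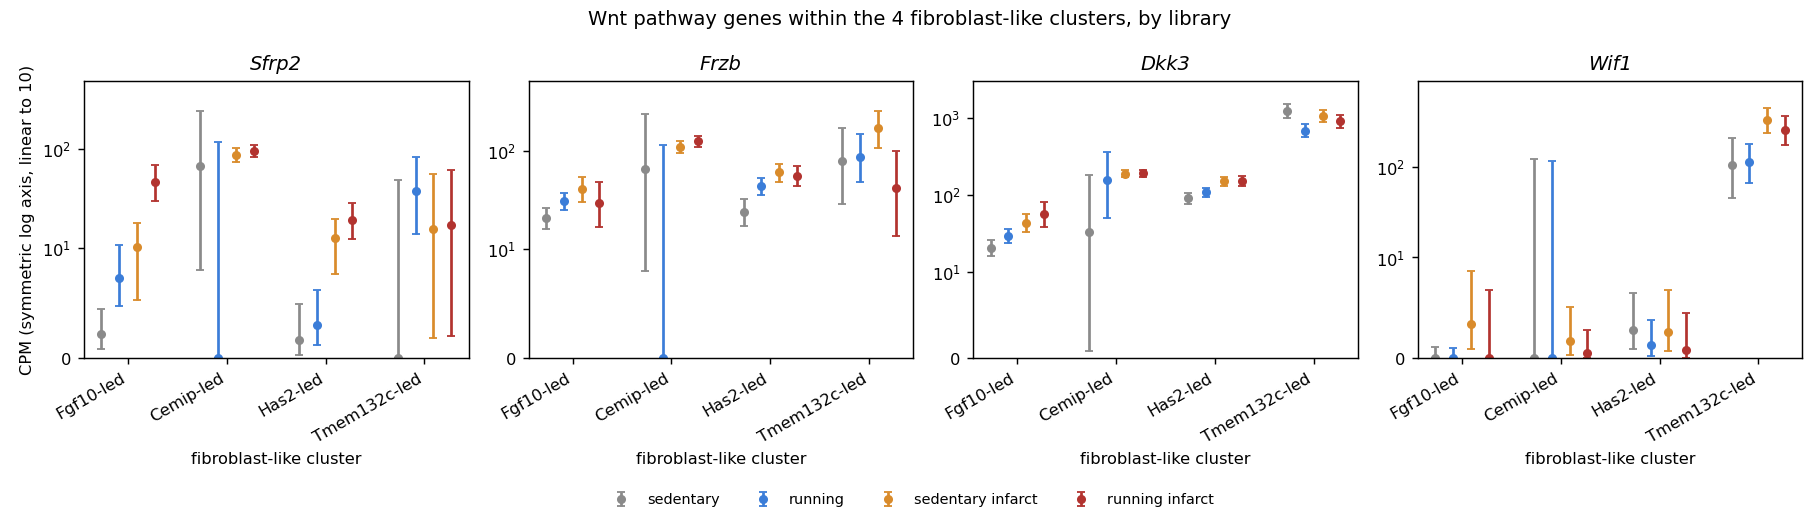
CPM of Sfrp2, Frzb, Dkk3 and Wif1 in the 4 fibroblast-like clusters, each named by a leading gene, with 1 point per library and bars for the 95% counting interval on an axis that is linear up to 10 and logarithmic above. Wif1 is high in the Tmem132c-led cluster, which held 98 of 119 UMIs, while Sfrp2 is higher after infarct within the Fgf10-led and Has2-led clusters.

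Of the genes higher in fibroblast-like nuclei of infarct libraries, Sfrp2 and Dkk3, and in part Sfrp1, were also higher after infarct in some other classes, while Lrp5 stayed within 1.5-fold in vascular endothelial-like, cardiomyocyte-like and endocardial-like nuclei in both infarct comparisons. Sfrp2 measured 0, 0.565, 7.52 and 11.1 CPM in cardiomyocyte-like nuclei, where sedentary infarct was at least 16.2-fold higher than sedentary and running infarct over running was 19.7 (5.94 to 102). It measured 0.530, 2.82, 22.0 and 20.6 CPM in vascular endothelial-like nuclei, with ratios of 41.5 (6.64 to 1720) and 7.30 (2.98 to 21.5). In endocardial-like nuclei Sfrp2 measured 0, 0, 17.2 and 20.1 CPM, at least 9.14-fold higher in running infarct than running, and in macrophage-like nuclei 4.55, 5.15, 17.2 and 21.9. The share of all genes at least 1.5-fold higher in sedentary infarct over sedentary was 11.7% in cardiomyocyte-like, 10.3% in vascular endothelial-like and 12.0% in endocardial-like nuclei, and in running infarct over running 10.8%, 8.80% and 8.45%. After thinning, 0%, 0%, 0.575% and 1.58% of cardiomyocyte-like, 0%, 0.136%, 1.40% and 2.43% of vascular endothelial-like and 0.775%, 0%, 2.27% and 2.77% of macrophage-like nuclei had a Sfrp2 UMI. Each stood below the fibroblast-like share of the same infarct library, and the part of free RNA in these counts was not tested.

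The cardiomyocyte-like class, too, was made of different clusters: one led by Xirp2 and Nppa, a natriuretic peptide gene, held 107 of 778, 116 of 649, 81 of 372 and 229 of 418 nuclei. In the other, led by Nmrk2, Sfrp2 measured 0, 0.600, 6.95 and 6.36 CPM, Sfrp1 2.89, 3.40, 4.83 and 11.0, and Dkk3 2.09, 3.40, 6.04 and 16.8.

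Sfrp1 was high in running infarct over the whole cardiomyocyte-like class, at 3.10, 4.14, 5.49 and 17.9 CPM (4.32-fold over running and 3.25-fold over sedentary infarct). In vascular endothelial-like nuclei it measured 8.48, 5.17, 8.81 and 17.7 CPM, 3.43-fold higher in running infarct than running, with the sedentary and sedentary infarct libraries alike. It measured 4.48, 6.60, 24.6 and 20.8 CPM in endocardial-like nuclei, where sedentary infarct was 5.50-fold over sedentary. In macrophage-like nuclei Sfrp1 measured 0, 1.72, 11.0 and 18.8 CPM, a running infarct over running ratio of 10.9 (1.82 to 446). That log2 difference of 3.45 was -0.92 at the 5% mitochondrial limit. Dkk3 measured 2.01, 4.14, 8.68 and 16.9 CPM in cardiomyocyte-like nuclei (4.31-fold and 4.08-fold higher after infarct) and 12.3, 8.80, 61.5 and 27.5 CPM in endocardial-like nuclei (5.00-fold and 3.12-fold). In T cell-like nuclei Dkk3 measured 12.0, 16.9, 127 and 41.6 CPM and Frzb 12.0, 0, 94.2 and 15.3 CPM, from 10, 16, 52 and 127 nuclei. Wif1 in cardiomyocyte-like nuclei measured 2.63, 6.78, 8.39 and 3.38 CPM, 3.19-fold higher in sedentary infarct than sedentary (1.69 to 6.18) but lower in running infarct than running.

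Over the whole fibroblast-like class, running alone was accompanied by fewer calls than either infarct comparison. In running over sedentary, 3 of 30 genes were higher (6.42% of all genes) and 3 lower (3.90%). The higher ones were Sfrp2 (2.72, 1.39 to 5.72), Frzb (1.60, 1.28 to 2.02) and Sfrp4 (1.63, 1.08 to 2.49), all of the Sfrp family. The lower ones, Fzd3, Fzd8 and Wnt2, had intervals that included no difference. Within clusters Sfrp2 was 3.34-fold (1.41 to 9.16) higher in running in the Fgf10-led cluster and Frzb 1.81-fold (1.26 to 2.65) in the Has2-led cluster. Calls were not fewer inside the Fgf10-led cluster, with 9 of 24 genes called in running over sedentary. The infarct comparisons gave 7 of 21 there in sedentary and 9 of 21 in running mice, and the share of all genes was not counted.

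In running infarct over sedentary infarct, 4 of 29 genes were higher (6.37% of all genes) and 3 lower (5.11%). Sfrp1 was 1.87-fold higher (1.61 to 2.18), Sfrp2 1.54-fold (1.26 to 1.88) and Rspo1 1.68-fold (1.06 to 2.68), while Frzb, at 1.13, stayed within 1.5-fold. Wnt10b was the other gene called higher, and Dkk2, Fzd7 and Lgr6 the ones called lower. Dkk2 was 5.01-fold lower (2.08 to 14.6) at 35 and 6 UMIs, all in the Cemip-led cluster, where 11 nuclei held all 41. The Cemip-led cluster made up more of the class in running infarct than in sedentary infarct, and within it the Sfrp2 ratio was 1.10 (0.882 to 1.38). Within the Fgf10-led cluster that ratio was 4.53 (2.19 to 9.90), and within the Has2-led cluster 1.52 (0.80 to 2.94). Each of these comparisons shares a library with both infarct comparisons, so the calls are not independent of theirs.

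Beyond the ligands and receptors, 7 lists of pathway genes were counted in fibroblast-like nuclei. In sedentary infarct over sedentary, none of 15 measured genes of signal transduction and the destruction complex and none of 10 alternative receptors was called in either direction, and in Wnt secretion Porcn, which attaches the lipid to Wnts, was the 1 of 5 called (lower). Of 12 measured genes of negative feedback and known targets, 7 were higher (Nkd1, Nkd2, Dact3, Ccn4, Ccn5, Tnfrsf19 and Fgf9) and 2 lower (Axin2 and Ccnd1), with a median log2 difference of 0.71 against -0.03 for all genes. Of all genes measured in the class, 9.96% were called higher and 11.0% lower in this comparison, and 10.7% and 12.3% in running infarct over running. In running infarct over running, 6 of 12 were higher (Nkd1, Nkd2, Dact3, Ccn4, Ccn5 and Fgf9) and 2 lower (Tcf7 and Ccnd1), with a median of 0.77 against -0.06. The other calls in running infarct over running were Gpc3, a glypican co-receptor (higher, 1 of 10 alternative receptors), and Amer1 (lower, 1 of 15 transduction genes), with none of 5 in Wnt secretion.

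Ccn5, a matricellular protein once listed as a Wnt-induced gene, measured 31.5, 51.0, 183 and 250 CPM, 5.80-fold (4.89 to 6.91) and 4.91-fold (4.31 to 5.61) higher after infarct. Ccn4, of the same family, measured 1.17, 1.51, 32.9 and 38.6 CPM, 28.0-fold and 25.5-fold higher. Nkd2, which binds Dishevelled and dampens the pathway, measured 20.0, 20.0, 80.2 and 99.4 CPM, 4.02-fold and 4.96-fold higher. Axin2, the feedback gene most often used as a readout of beta-catenin, went otherwise: it measured 8.41, 7.23, 3.98 and 9.52 CPM. Axin2 was 2.12-fold lower in sedentary infarct than sedentary (1.20 to 3.90). In running infarct over running its ratio was 1.32 (0.825 to 2.09), slightly higher with an interval that included no difference. All of these stand on class sums to which the Cemip-led cluster contributed 1.73%, 1.74%, 34.1% and 55.6% of nuclei.

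A list of other secreted or membrane modulators had 6 measured genes, to be set against the same shares of all genes. In sedentary infarct over sedentary 2 of the 6 were higher (Cthrc1 and Tpbg) and 1 lower (Igfbp4). In running infarct over running 2 of 6 were higher (Cthrc1 and Lypd6) and 1 lower (Apcdd1). Cthrc1, a secreted protein of activated fibroblasts, measured 1.17, 1.51, 52.6 and 60.5 CPM, 44.8-fold (20.3 to 123) and 39.9-fold (20.7 to 88.5) higher. Lef1, a nuclear partner of beta-catenin, was the only 1 of 14 nuclear factors called in sedentary infarct over sedentary, at 0.783, 2.36, 7.07 and 3.60 CPM (9.03, 3.20 to 35.1). In running infarct over running Lef1 was called higher with a ratio of 1.53 (0.676 to 3.46), and Tcf7 and Tle4 lower, of 15 measured. Daam2, of the planar polarity list, measured 20.2, 18.5, 56.6 and 59.7 CPM, the only 1 of 12 called, 2.81-fold and 3.23-fold higher. In running over sedentary the only calls in these lists were Apcdd1 and Ccn5, both higher. In running infarct over sedentary infarct they were Gpc3, Lypd6 and Axin2, higher, and Tpbg and Lef1, lower.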

How the data were processed

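For each library the authors deposited a matrix of raw UMI counts, made with Cell Ranger 7.1 on GRCm39 per the submitters' processing notes. Here, barcodes under 300 detected genes or over 20% mitochondrial UMIs were dropped. Scrublet's automatic threshold marked no doublets, so the highest scores were removed at 0.8% per 1000 barcodes (84 to 313 per library). Nuclei were clustered with scanpy 1.11.5 on 3000 variable genes, 40 principal components and 15 neighbours (Leiden, resolution 1), leaving out the Wnt pathway genes. Counts were summed per class and library and scaled to 1000000 non-mitochondrial UMIs. Intervals are exact (Poisson for levels, conditional binomial for ratios, Clopper-Pearson for shares) and cover counting error only. Each gene was given in its highest class, and in others where its interval lay wholly beyond 1.5-fold. The ratio script was tested on simulated data. Genes, lists and markers were chosen with earlier results of these data known, and the Calcr-led cluster was set apart from the endocardial-like class after the clusters were seen.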

Additional observations from a re-analysis of the deposited data

How the results depend on the processing

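No paired analysis was possible because each group is 1 library. Of 1515 recomputed values for 143 named results, 1394 moved by less than their counting interval, 111 moved by more and 10 changed sign. In fibroblast-like nuclei, 14 calls in sedentary infarct over sedentary (11 higher, 3 lower) became 7 at 100 UMIs or more (6 and 1), 7 within the Fgf10-led cluster (5 and 2) and 8 within the Has2-led cluster (4 and 4). The 14 calls in running infarct over running (10 and 4) became 7 (6 and 1), 9 (8 and 1) and 8 (4 and 4). The 6 in running over sedentary became 2 at 100 UMIs and 3 in the Has2-led cluster. They became 9 at 5% mitochondrial UMIs, with every nucleus weighed alike, in nuclei with Y-linked transcripts and in the Fgf10-led cluster. The 7 in running infarct over sedentary infarct became 4 at 5% mitochondrial UMIs, 11 with every nucleus weighed alike and 2 at 100 UMIs. Fewer nuclei or genes enter most of these. The sign changes, as log2 differences, were in nuclei with Y-linked transcripts for Dkk2 of the Calcr-led cluster (0.13), mesothelial Rspo2 (-0.15) and Wnt5a (-0.052) and smooth muscle Wnt5b (0.70 and 0.65), at 5% mitochondrial UMIs for running infarct over running in fibroblast-like Dkk3 (-0.19) and Wif1 (-0.93) and macrophage-like Sfrp1 (-0.92), and within the Fgf10-led cluster for Frzb (-0.058) and Sfrp4 (0.28, from -0.71). Their cause was not tested. The 5% limit left 6650 nuclei, 505 of them in the running library. The within-cluster counts and the merging of the Calcr-led cluster into the endocardial-like class were chosen after seeing the data. The Calcr-led cluster was not found again at 5% mitochondrial UMIs or at 800 genes, nor pericyte-like and smooth muscle-like nuclei apart from each other with doublets kept, so these gave no value.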
